A study of Mus musculus with 2 samples.

Results

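The genes described here encode the nuclear subunits of the mitochondrial respiratory chain and ATP synthase. A gene was taken as a member when its symbol began with Nduf followed by a, b, c, s or v and a number (complex I), was Sdha to Sdhd (complex II), began with Uqcr (complex III), with Cox and a digit from 4 to 8 (complex IV) or with Atp5 (complex V), with pseudogenes left out. This gave 83 of the 31054 genes counted, of which 36 fell in complex I, 4 in complex II, 8 in complex III, 18 in complex IV and 17 in complex V. The choice rested on names alone, so Ndufa4, which carries a complex I name and is known as a subunit of complex IV, was counted with complex I.

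Both libraries were made from gonadal white adipose tissue (gWAT) of male mice aged 18 months that carried p16-CreERT2 and R26-LSL-tdTomato. In these animals tamoxifen activates a Cre recombinase made from the p16 locus, and cells in which it acts carry the red fluorescent protein tdTomato from then on. All mice received tamoxifen, and the stromal vascular cells lacking the endothelial marker CD31 and the leukocyte marker CD45 were sorted into a Tom+ and a Tom- library. The Tom- cells therefore shared the alleles, the age and the drug with the Tom+ cells and differed in fluorescence, which marks past activity of the p16 promoter at the time of tamoxifen and not senescence itself. How many mice each library pooled is not given in the sources used here, and mature adipocytes are lost from such a preparation.

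The respiratory chain passes electrons from NADH through complex I, or from succinate through complex II, to ubiquinone, then through complex III and cytochrome c to complex IV, which reduces oxygen. Complexes I, III and IV pump protons across the inner mitochondrial membrane, and complex V lets them flow back to make ATP. The mitochondrial genome encodes some of the central proteins of the chain, none of them in complex II, and the nucleus encodes all the others. Several complex IV subunits exist as a widely used form and a form typical of heart and skeletal muscle, testis or lung. In adipose tissue the heart-type forms Cox7a1 and Cox8b are best known as genes of brown and beige fat cells.

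Cells with over 1000 and under 7000 genes and under 8% of UMIs (unique molecular identifiers, each standing for 1 captured transcript) from mitochondrially encoded genes were kept. A kept cell was called mesothelial with at least 10 UMIs of Msln, Upk3b, Krt19, Lrrn4 and Upk1b together and stromal with under 5. This gave 3263 Tom+ and 4800 Tom- stromal cells and 250 Tom+ and 1887 Tom- mesothelial cells, while 11 and 30 cells lay between. Median depth was 14235 and 11270 UMIs in stromal and 18601.5 and 14753 UMIs in mesothelial cells. Levels are given as counts per 1000000 UMIs of a group (CPM), and since each transcript is counted at its 3′ end they need no scaling by length. Mesothelial markers outside the rule went with the classes, as Muc16, a surface mucin of mesothelium, stood at 231 and 219 CPM in Tom+ and Tom- mesothelial cells against 0.254 and 1.21 CPM in stromal cells. Stromal markers did so less evenly. Pdgfra, a receptor of stromal progenitors, stood at 344 and 282 CPM in stromal against 41.9 and 51.4 CPM in mesothelial cells. The matrix gene Dcn kept 54.0% and 50.8% of its stromal level in mesothelial cells. Cd34 was higher in mesothelial cells, at 435 and 417 CPM against 294 and 292 CPM. The reporter tdTomato stood at 211 and 780.2 CPM in Tom+ stromal and mesothelial cells and at 13.1 and 8.25 CPM in Tom- ones. Immunoglobulin genes took 6.06% of Tom+ and 1.59% of Tom- stromal UMIs, and 136 Tom+ and 54 Tom- stromal cells had at least 5% of their UMIs from them, which the labelled cell types would not give. The libraries also listed 2224 barcodes in common, borne by 404 of the Tom+ and 75 of the Tom- stromal cells and by 100 of the Tom+ and 207 of the Tom- mesothelial cells. Values without the immunoglobulin-rich cells or without the shared barcodes are given for some of the results on which they bear.

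Each group is 1 library, so no test was possible, and every interval is a 95% interval for counting error alone, which leaves out differences between animals and sorts. The word called is used for a log2 ratio of at least 0.35 in either direction among genes averaging at least 5 CPM in the compared groups. Nor can more transcripts per mitochondrion be told apart from more mitochondria per cell in such counts.

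The members took 1.27% of all UMIs in Tom+ stromal cells and 1.22% in Tom- stromal cells, against 1.57% in Tom+ and 1.59% in Tom- mesothelial cells. Mesothelial cells of both libraries thus gave the members a larger share of their transcripts than stromal cells of either, while the Tom+ and Tom- values of 1 class lay close together. Complex I, the NADH dehydrogenase, took the largest share, at 0.411%, 0.413%, 0.537% and 0.550% in Tom+ stromal, Tom- stromal, Tom+ mesothelial and Tom- mesothelial cells. Complex V, the ATP synthase, followed with 0.367%, 0.356%, 0.445% and 0.444% in the same order. Complex IV, cytochrome c oxidase, stood at 0.323%, 0.294%, 0.385% and 0.382%. It was the complex whose stromal share differed most between the libraries. Complex III, the cytochrome bc1 complex, took 0.136%, 0.130%, 0.172% and 0.180%. Complex II, succinate dehydrogenase, took 0.0307%, 0.0299%, 0.0332% and 0.0350%, the least of the complexes and with the fewest genes. The 13 subunits encoded by the mitochondrial genome went the other way, with 4.01% and 3.79% in stromal and 3.27% and 3.22% in mesothelial cells, although cells were kept by a limit on those genes.

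**Figure D1:**
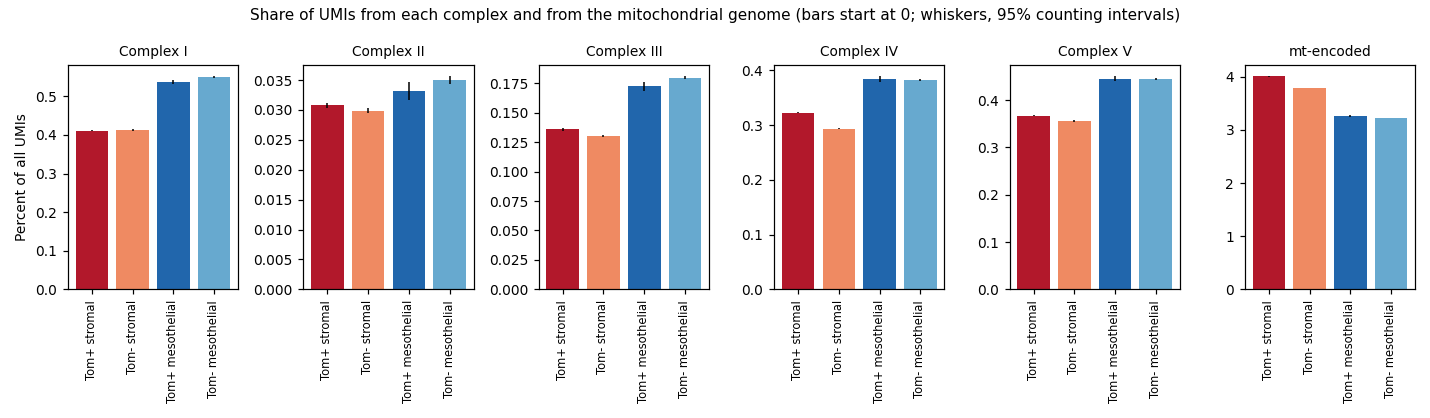
Percent of all UMIs (vertical axis) taken by the nuclear members of each complex and by the mitochondrially encoded subunits in the 4 groups, with 95% counting intervals. The mesothelial bars stand above the stromal ones in complexes I to V, from 0.413% to 0.550% for complex I in Tom- cells, and below them for the mitochondrially encoded subunits.

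Within the complexes the levels of single members ranged over several orders of magnitude. In Tom+ stromal cells Cox4i1, the common form of the largest nuclear complex IV subunit, stood at 549.7 CPM and Cox8a, the smallest subunit's common form, at 492 CPM, while Atp5b, the catalytic beta subunit of ATP synthase, stood at 316 CPM. The core subunits of complex I, which carry its flavin and iron-sulfur clusters, were lower, from 33.4 CPM for Ndufs1 to 88.7 CPM for Ndufs7. At the other end were the tissue-restricted forms Cox7b2 and Cox8c, typical of testis, with 2 and 3 UMIs among all Tom+ stromal cells. A second gene named Atp5o, a transcript that overlaps the main one, had 0 UMIs in every group. Reads that match both genes are not counted for either, so this 0 sets no limit on its level. Many members have processed copies elsewhere in the genome, and counting of this kind drops reads that match several genes, so the order of genes by level is less certain than the comparison of 1 gene between groups.

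**Figure D2:**
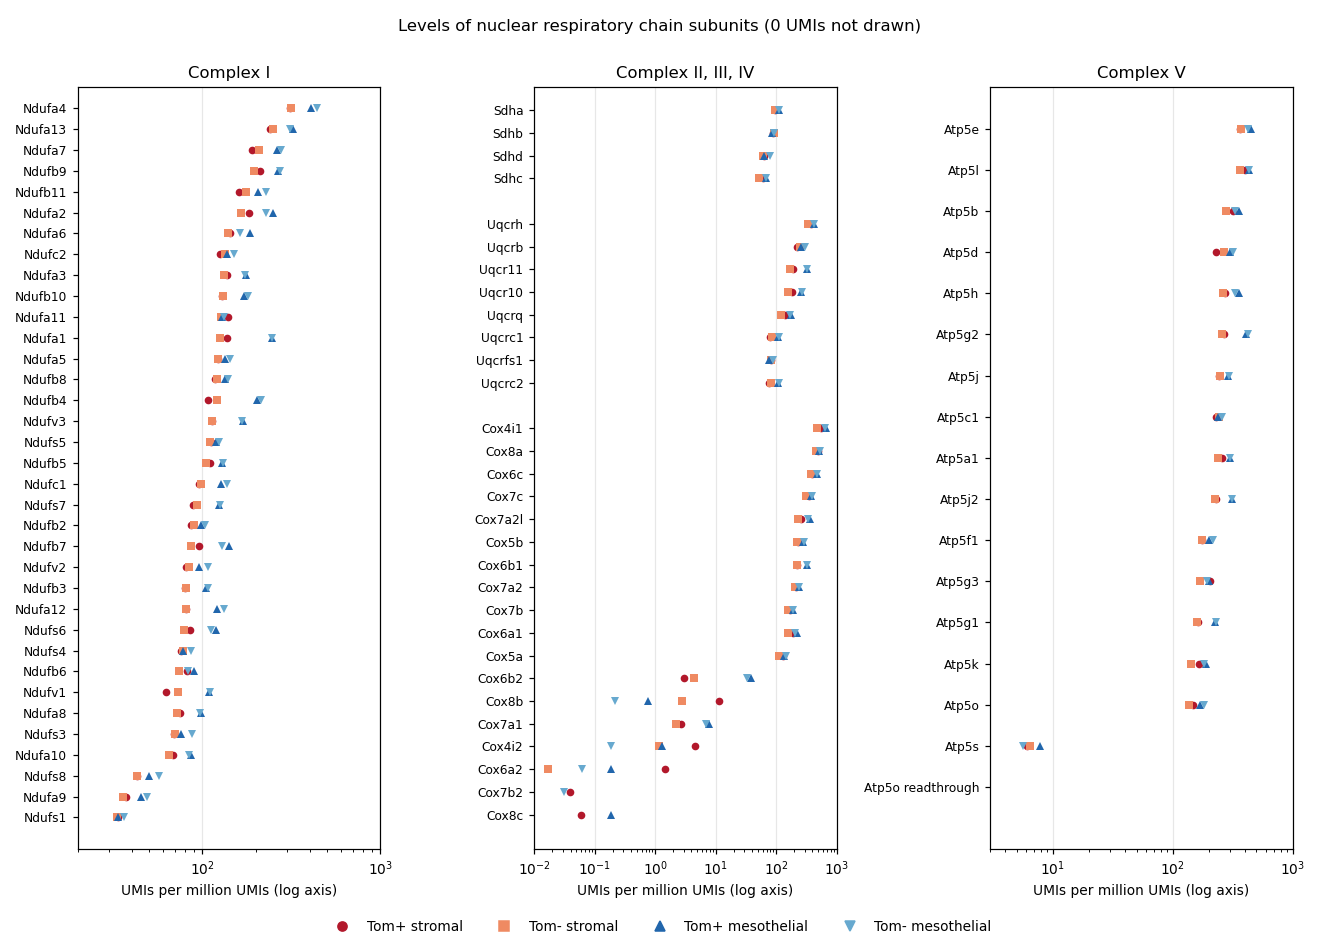
Levels of the members in CPM (log axis) by complex in the 4 groups, with 1 complex I member not shown. Most members lie between about the level of Ndufs1 (33.4 CPM in Tom+ stromal cells) and that of Cox4i1 (549.7 CPM), with the tissue-restricted complex IV forms far below.

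As a share of UMIs, mesothelial cells had more transcripts of the nuclear members than stromal cells in both libraries. In the Tom+ library 78 members passed the level filter and 34 were called higher and 1 lower in mesothelial cells, where 33.7% of all genes tested were called higher and 23.6% lower. Among those called higher, Cox6b2 and Cox7a1 passed the filter through their mesothelial level alone. Cox8b, the 1 called lower, passed through its stromal level alone. In the Tom- library 76 passed and 43 were called higher and 0 lower, with a background of 32.8% and 19.7%. The median log2 ratio of the members that passed was 0.28 in the Tom+ and 0.37 in the Tom- library, and that of all genes tested was 0.11 and 0.14. The members' medians stood at the 62.1 and 68.3 percentile of all genes, so the ratios were mostly small and on one side of 0. The lower and upper quartiles of the members were 0.16 and 0.44 in the Tom+ and 0.23 and 0.47 in the Tom- library. As a sum, the members were higher by 0.31 (0.30 to 0.32) and 0.38 (0.38 to 0.39) on the log2 scale. Of the 36 complex I members, 35 had a ratio above 0 in both libraries, as did 7 of 8 complex III, 14 of 16 complex V and 3 of 4 complex II members. In complex IV the 12 members that passed in both had ratios above 0, but Cox6b2 passed through its mesothelial level alone. Cox8b (-3.92 and -3.71) and Cox4i2 (-1.77 and -2.66) had ratios below 0 and failed the filter in 1 library or in both. Of the 230 Tom+ stromal Cox4i2 UMIs, 180 lay in the immunoglobulin-rich cells. Outside those cells Tom+ stromal Cox4i2 stood at 1.09 (0.812 to 1.44) CPM, beside a mesothelial level of 1.32 (0.529 to 2.71) CPM. That mesothelial level came from 7 UMIs in 2 of 250 cells, with 6 UMIs in 1 cell, so no direction was read from it. In the Tom- library the values were 0.947 (0.709 to 1.24) and 0.185 (0.0681 to 0.404) CPM, so Cox4i2 was lower in mesothelial cells there. Over all genes tested, 57.2% had a ratio above 0 in the Tom+ and 61.1% in the Tom- library. Of the 9902 genes tested in both libraries, 5252 had a ratio above 0 in both. By complex, the medians in the Tom+ library were 0.36 for I, 0.11 for II, 0.36 for III, 0.22 for IV and 0.24 for V, and in the Tom- library 0.42, 0.30, 0.42, 0.39 and 0.28. Without the shared barcodes the Tom+ medians in that order were 0.30, 0.06, 0.31, 0.14 and 0.20. Over all members, the Tom+ median without those barcodes was 0.21 with 27 members called higher, and the Tom- median 0.37 with 40. Of all genes, 31.2% and 32.5% were called higher in that setting, with medians of 0.03 and 0.12. Without the immunoglobulin-rich cells, whose immunoglobulin UMIs enlarge the stromal total, the Tom+ median was 0.21 with 22 called higher. There 29.6% of all genes were called higher, and their median was 0.03. With size factors in place of totals, members called higher were 18 of 78 and 14 of 76. Of all genes, 27.9% and 25.2% were called higher, so the shares of members lay under those of all genes. The medians were 0.18 and 0.23, against 0.00 and 0.00 for all genes.

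**Figure D3:**
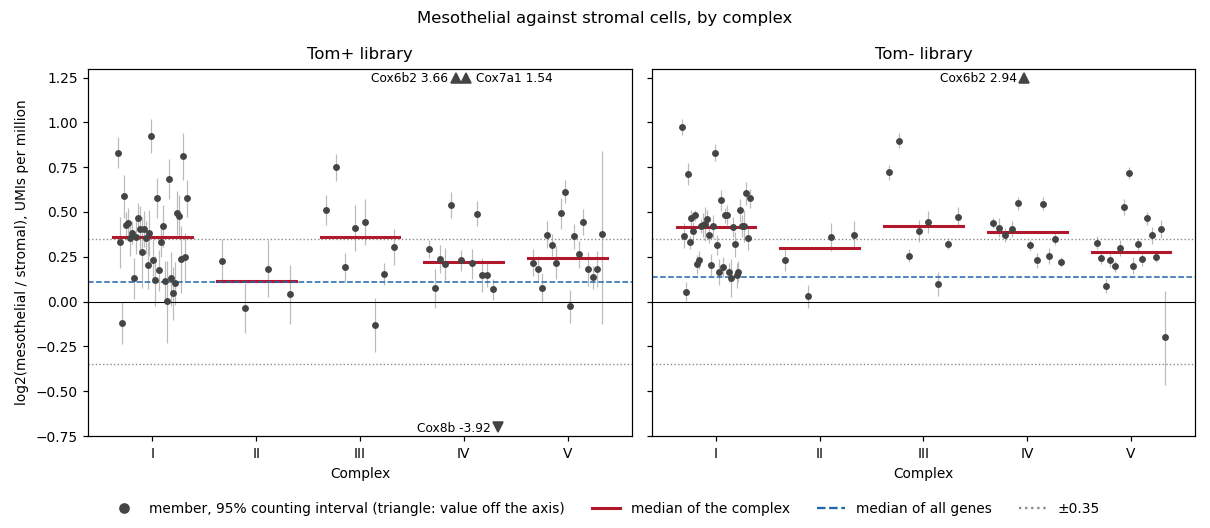
Log2 ratio of CPM in mesothelial over stromal cells for each member that passed the level filter, by complex, in the Tom+ (left) and Tom- (right) library, with 95% counting intervals. The complex medians (red) lie between 0.11 for complex II in the Tom+ library and 0.42 for complex III in the Tom- library, and values beyond the axis are written beside triangles.

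In complex I the 2 members with the largest ratios belong to the arm buried in the membrane. Ndufa1, a small protein needed to assemble that arm, stood at 138 and 125 CPM in Tom+ and Tom- stromal cells and at 246 and 246 CPM in mesothelial cells. Its log2 ratio of mesothelial over stromal was 0.83 (0.74 to 0.92) in the Tom+ and 0.98 (0.93 to 1.02) in the Tom- library. Ndufb4, another accessory membrane-arm subunit, stood at 107 and 121 CPM in stromal and 203 and 214 CPM in mesothelial cells, with ratios of 0.92 (0.83 to 1.02) and 0.83 (0.78 to 0.88). For both genes the mesothelial values of the 2 libraries lay together, above both stromal values. Ndufa12, an accessory subunit of the arm that projects into the matrix, was at 80.8 and 80.3 CPM in stromal and 121 and 132 CPM in mesothelial cells. Ndufa4, the complex IV subunit with a complex I name, was the most abundant gene of the group at 310.2 and 316 CPM in stromal and 405 and 441 CPM in mesothelial cells. Its relative Ndufa4l2, which lies outside the symbol rule and is known as a gene induced in low oxygen, was lower in mesothelial cells, at 2.07 and 0.896 CPM against 6.24 and 10.1 CPM. Ndufa11, a membrane-arm subunit, was nearly flat, at 139, 127, 128 and 132 CPM in Tom+ stromal, Tom- stromal, Tom+ mesothelial and Tom- mesothelial cells.

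The 7 core subunits of complex I did not move as a block. Ndufv1, which binds NADH and the flavin, stood at 62.0 and 72.7 CPM in stromal and 109 and 111 CPM in mesothelial cells, with log2 ratios of 0.81 (0.68 to 0.94) and 0.60 (0.54 to 0.67). Ndufs1, the largest iron-sulfur subunit, gave 33.4, 33.1, 33.4 and 36.3 CPM in the 4 groups taken in the order above. Its Tom+ interval, 0.00 (-0.23 to 0.23), covered 0. The core subunits had a median ratio of 0.25 in the Tom+ and 0.41 in the Tom- library, and the accessory subunits 0.36 and 0.42.

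Complex II had the smallest summed ratios of mesothelial over stromal, 0.11 (0.04 to 0.18) in the Tom+ and 0.23 (0.19 to 0.26) in the Tom- library. Sdha, the flavoprotein that oxidises succinate, stood at 96.0, 94.5, 112 and 111 CPM in the 4 groups, and its mesothelial over stromal ratios were 0.23 (0.10 to 0.35) and 0.23 (0.17 to 0.29). Sdhb, the iron-sulfur subunit, stood at 89.0, 91.0, 86.8 and 92.9 CPM, and both its intervals, -0.04 (-0.18 to 0.10) and 0.03 (-0.04 to 0.09), covered 0. The membrane anchors Sdhc and Sdhd differed between the libraries in size of ratio. Sdhd stood at 62.3, 60.3, 64.1 and 78.2 CPM, a ratio of 0.04 (-0.13 to 0.20) in the Tom+ and 0.37 (0.30 to 0.45) in the Tom- library. Sdhc stood at 60.2, 53.1, 68.4 and 68.2 CPM with ratios of 0.18 (0.02 to 0.34) and 0.36 (0.28 to 0.44). The difference between libraries was not tested, and the Tom+ mesothelial group holds 250 cells.

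In complex III the largest ratios were those of Uqcr11 and Uqcr10, small supernumerary subunits. Uqcr11 stood at 193 and 173 CPM in Tom+ and Tom- stromal cells and 324 and 322 CPM in mesothelial cells, with log2 ratios of 0.75 (0.67 to 0.82) and 0.90 (0.86 to 0.94). Uqcr10 stood at 184 and 161 CPM in stromal and 262 and 265 CPM in mesothelial cells. The core proteins Uqcrc1 and Uqcrc2, which face the matrix, had ratios of 0.41 and 0.45 in the Tom+ and 0.40 and 0.44 in the Tom- library. Uqcrfs1, the Rieske iron-sulfur protein that hands electrons to cytochrome c1, was the exception, at 82.4, 84.0, 75.3 and 89.8 CPM in the 4 groups. Its ratio was -0.13 (-0.28 to 0.02) in the Tom+ and 0.10 (0.03 to 0.16) in the Tom- library, so the Tom+ interval covered 0. Cyc1, the cytochrome c1 gene outside the symbol rule, and Cycs, which encodes the mobile cytochrome c, had ratios of 0.08 and -0.15 in the Tom+ and 0.07 and -0.10 in the Tom- library.

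Among the common forms of complex IV, Cox6b1, which faces the intermembrane space, had the largest Tom+ ratio, 0.54 (0.46 to 0.61), and a Tom- ratio of 0.55 (0.51 to 0.59). It stood at 225 and 220.3 CPM in stromal and 326 and 322 CPM in mesothelial cells, without overlap. Cox7a2l, a factor that joins complexes III and IV into a supercomplex, stood at 259 and 234 CPM in stromal and 363 and 342 CPM in mesothelial cells. Cox4i1 stood at 549.7, 474, 673 and 642 CPM, and Cox5a, an early assembling subunit, at 131, 110.2, 138 and 147 CPM, in Tom+ stromal, Tom- stromal, Tom+ mesothelial and Tom- mesothelial cells. In both genes the lowest value was that of Tom- stromal cells, so the Tom+ ratios of 0.29 and 0.07 were smaller than the Tom- ratios of 0.44 and 0.41. Cox7a2 and Cox8a gave ratios of 0.21 and 0.07 in the Tom+ and 0.23 and 0.22 in the Tom- library.

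In complex V the c ring, which turns as protons pass, carried the largest ratios. Atp5g1, Atp5g2 and Atp5g3 encode the same mature c subunit with different targeting peptides, and they behaved differently. Atp5g2 stood at 269.6 and 259 CPM in stromal and 412 and 426 CPM in mesothelial cells, with ratios of 0.61 (0.55 to 0.68) and 0.72 (0.68 to 0.75). Atp5g1 stood at 161 and 161 CPM in stromal and 227 and 231 CPM in mesothelial cells. Atp5g3 stood at 206, 168, 202 and 193 CPM in the 4 groups and had a Tom+ ratio of -0.03 (-0.12 to 0.06). Its share of all c subunit UMIs was accordingly 32.3% (31.8 to 32.8) and 28.6% (28.1 to 29.1) in Tom+ and Tom- stromal cells and 24.0% (22.8 to 25.3) and 22.7% (22.2 to 23.2) in mesothelial cells. The F1 head was flatter. Its catalytic subunit Atp5b stood at 316, 277, 359 and 328 CPM, and its partner Atp5a1 at 258, 239, 299.8 and 299.9 CPM. Atp5c1, the gamma subunit of the rotating stalk, had ratios of 0.08 (-0.01 to 0.16) and 0.09 (0.05 to 0.13). Atpif1, the inhibitor of ATP synthase run in reverse and no member by symbol, was higher in mesothelial cells by 0.50 in the Tom+ and 0.83 in the Tom- library. Atp5s, known as coupling factor B and not part of the enzyme proper, lay near the level filter at 6.09, 6.46, 7.89 and 5.62 CPM.

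The widest contrasts in the family came from the tissue-restricted forms of complex IV, all at low levels. Cox6b2, known as the testis form of Cox6b1, stood at 3.05 (2.59 to 3.57) and 4.39 (3.87 to 4.96) CPM in Tom+ and Tom- stromal cells and at 38.7 (33.6 to 44.4) and 33.6 (31.7 to 35.7) CPM in mesothelial cells. The mesothelial intervals lay apart from the stromal ones, and the log2 ratios were 3.66 (3.36 to 3.97) and 2.94 (2.74 to 3.14). Cox6b2 made up 10.6% (9.27 to 12.1) and 9.45% (8.92 to 10.0) of all Cox6b UMIs in mesothelial cells, against 1.34% (1.14 to 1.57) and 1.95% (1.72 to 2.21) in stromal cells. At least 1 Cox6b2 UMI was found in 40.8% and 32.4% of Tom+ and Tom- mesothelial and 3.86% and 4.40% of stromal cells. When 7500 UMIs were drawn from every cell that had as many, leaving out 3, 98, 265 and 636 shallower cells in that order, the shares became 21.5% (16.5 to 27.1), 19.3% (17.5 to 21.2), 2.47% (1.94 to 3.09) and 2.83% (2.35 to 3.38). The stromal level was 7.89% and 13.05% of the mesothelial level in the Tom+ and Tom- library, against 0.110% and 0.551% for Muc16 and 7.57% and 9.12% for Cldn15, a tight junction gene of mesothelium. The stromal Cox6b2 level, relative to the mesothelial one, was thus above that of Muc16 and at or above that of Cldn15, and the part of free RNA in it was not tested. Without the shared barcodes the Cox6b2 ratio was 3.82 in the Tom+ and 3.03 in the Tom- library.

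Cox7a1, the heart and muscle form of Cox7a2, was also higher in mesothelial cells, at 7.89 (5.69 to 10.7) and 6.89 (6.02 to 7.86) CPM against 2.72 (2.29 to 3.21) and 2.18 (1.81 to 2.59) CPM in stromal cells. Its Tom+ ratio was 1.54 (1.002 to 2.04), and there Cox7a1 passed the level filter through its mesothelial level alone. In the Tom- library Cox7a1 fell under the level filter, with a ratio of 1.66 (1.34 to 1.99). After thinning, 3.64% (1.68 to 6.80) and 4.81% (3.86 to 5.90) of mesothelial and 2.07% (1.59 to 2.64) and 1.56% (1.21 to 1.99) of stromal cells held a Cox7a1 UMI.

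Cox8b, the heart and muscle form of Cox8a, went the other way and also differed between the sorted libraries. It stood at 11.4 (10.5 to 12.4) CPM in Tom+ and 2.83 (2.42 to 3.30) CPM in Tom- stromal cells, and 4 and 7 UMIs were found in all Tom+ and Tom- mesothelial cells. The mesothelial levels were 6.60% and 7.64% of the stromal ones, against 12.2% and 18.2% for Pdgfra, a receptor that marks stromal progenitors. The related receptor gene Pdgfrb was closer to Cox8b, at 7.90% and 10.5%. Other stromal genes kept more of their stromal level in mesothelial cells, such as the matrix gene Dcn at 54.0% and 50.8%. Cd34 stood above its stromal level, at 148% and 143%. The part of free RNA in the mesothelial Cox8b UMIs was not tested. Between the stromal groups the log2 ratio of Tom+ over Tom- was 2.01 (1.75 to 2.27), and Cox8b was the 1 member called higher in Tom+ stromal cells, where 14.8% of all genes tested were called higher. Among Tom+ stromal cells 9.99% held a Cox8b UMI, with up to 10 in 1 cell, against 2.77% of Tom- cells, and after thinning 6.60% (5.74 to 7.55) against 2.16% (1.74 to 2.65). Cox8b remained a minor form, at 2.26% (2.08 to 2.45) and 0.624% (0.532 to 0.727) of the Cox8 UMIs of Tom+ and Tom- stromal cells.

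Within the stromal cells the Cox8b UMIs gathered in 1 range. Cells with at least 10 UMIs of the adipocyte differentiation genes Fabp4, Cd36 and Pparg and none of Dpp4 and Pi16, the genes of early progenitors, were 1048 of the Tom+ and 1297 of the Tom- stromal cells. They held 369 of 582 Cox8b UMIs in the Tom+ and 96 of 164 in the Tom- library. Their levels were 20.8 (18.8 to 23.1) and 5.84 (4.73 to 7.13) CPM. Cells with at least 3 UMIs of Dpp4 and Pi16 and under 10 of the other genes stood at 1.21 (0.581 to 2.23) and 0.725 (0.332 to 1.38) CPM. Inside the Fabp4, Cd36 and Pparg range the Tom+ over Tom- ratio of Cox8b was 1.83 (1.51 to 2.17), in the Dpp4 and Pi16 range 0.74 (-0.71 to 2.21), and without the immunoglobulin-rich cells 2.11 (1.85 to 2.37). The ranges are stretches of marker counts chosen after the data were seen, and not cell types. Markers of mature adipocytes (Adipoq, Plin1, Cidec, Lep and Aqp7) summed to 4.34 CPM in Tom+ and 5.72 CPM in Tom- stromal cells. Among all stromal cells without the shared barcodes the ratio was 2.17.

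Cox4i2 and Cox6a2 gave Tom+ stromal signals of a different make. Cox4i2, the form of Cox4i1 known from lung and from low oxygen, stood at 4.50 (3.94 to 5.12) CPM in Tom+ and 1.17 (0.912 to 1.49) CPM in Tom- stromal cells, under the level filter. Of its Tom+ UMIs, 180 of 230 lay in the 136 immunoglobulin-rich cells, where its level was 33.4 (28.7 to 38.7) CPM against 1.09 (0.812 to 1.44) CPM in the other Tom+ stromal cells. In those other cells the Tom+ over Tom- ratio was 0.21 (-0.38 to 0.79), an interval that covered 0. Cox6a2, the heart and muscle form of Cox6a1, had 76 UMIs in Tom+ stromal cells, 72 of them in the immunoglobulin-rich cells, and 1, 1 and 2 UMIs in Tom- stromal, Tom+ mesothelial and Tom- mesothelial cells. Outside the immunoglobulin-rich cells Cox6a2 had 4 UMIs in Tom+ and 0 in Tom- stromal cells, which allows up to 0.0536 CPM. The immunoglobulin-rich cells were deep, with a median of 39561 and 36259 UMIs in the Tom+ and Tom- library. No doublets were removed from either library.

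**Figure D4:**
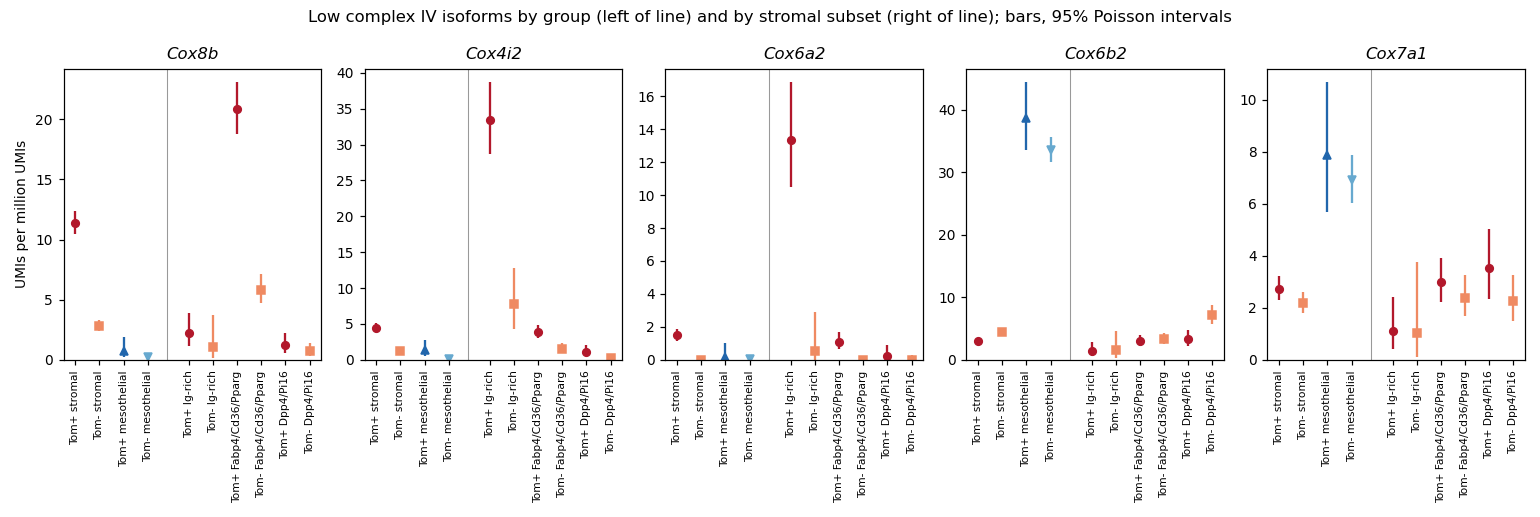
Levels of Cox8b, Cox4i2, Cox6a2, Cox6b2 and Cox7a1 in CPM, with 95% counting intervals, by library in cell subsets that include the stromal ranges and the immunoglobulin-rich stromal cells. Cox8b is highest in the Tom+ Fabp4, Cd36 and Pparg range (20.8 CPM), Cox4i2 and Cox6a2 in the Tom+ immunoglobulin-rich cells (33.4 and 13.4 CPM), and Cox6b2 in mesothelial cells (38.7 and 33.6 CPM).

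The 150 bases before the start of the common and the restricted gene of the Cox6b and Cox8 pairs are shown because these pairs carry the widest contrasts. They are RefSeq sequences on build GRCm38.p6, all on the minus strand and written 5′ to 3′, from chr7:30626115-30626264 for Cox6b1, chr7:4753095-4753244 for Cox6b2, chr19:7217617-7217766 for Cox8a and chr7:140900447-140900596 for Cox8b. Capitals mark a match, on either strand, to the ETS motif CCGGAAG or the TATA motif TATAAA.
Cox6b1: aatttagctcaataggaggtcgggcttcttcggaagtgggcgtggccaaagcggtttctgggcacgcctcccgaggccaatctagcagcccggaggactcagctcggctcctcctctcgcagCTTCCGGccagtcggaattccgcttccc
Cox6b2: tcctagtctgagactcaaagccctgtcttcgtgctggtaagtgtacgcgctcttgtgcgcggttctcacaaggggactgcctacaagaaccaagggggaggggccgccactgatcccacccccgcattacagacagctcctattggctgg
Cox8a: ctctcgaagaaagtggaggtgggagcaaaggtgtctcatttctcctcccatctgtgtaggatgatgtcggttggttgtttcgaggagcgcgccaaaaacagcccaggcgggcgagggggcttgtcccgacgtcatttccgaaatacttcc
Cox8b: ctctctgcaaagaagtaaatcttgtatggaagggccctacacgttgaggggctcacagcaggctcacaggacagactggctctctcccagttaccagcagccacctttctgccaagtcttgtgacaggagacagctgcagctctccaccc
The only match was an ETS motif on the opposite strand in Cox6b1. In windows of this length 5.52% of all 32851 promoters held the ETS and 7.57% the TATA motif. The 150-base windows of Cox6b1, Cox6b2, Cox8a and Cox8b held 12, 7, 10 and 1 CpG dinucleotides, and the median promoter held 4.

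Over all members, 71 promoters of 66 genes were found in RefSeq, each of 300 bases from 250 before to 50 after the start. The letters TGCGCA, the core of sites for NRF-1, a regulator of respiratory genes, were present in 25.4% of them and in 7.76% of all promoters. The ETS motif, of the kind bound by GABP (NRF-2), was in 22.5% against 8.86%, and AAGATGGCG, a core of YY1 sites, in 9.86% against 1.40%. The TATA motif was in 11.3% against 13.6%. The NRF-1, ETS and YY1 letters each contain a CpG and the TATA letters do not. The promoters compared were not matched for CpG content, and its part in these shares was not tested. All were searched on both strands, and windows of genes with several starts can overlap.

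The subunits encoded in the mitochondrion did not follow the nuclear ones. Of the 13, 0 had a mesothelial over stromal ratio above 0 in the Tom+ and 2 in the Tom- library, with medians of -0.30 and -0.23. mt-Nd3 of complex I had ratios of -0.59 and -0.53, and mt-Cytb of complex III -0.54 and -0.52. mt-Co1, the catalytic subunit of complex IV, was flat at -0.04 and 0.05. Cells were kept by an upper limit on the share of these genes, and its part in the ratios was not tested. Among genes that serve the chain, 15 of 40 assembly factors that passed were called higher and 5 lower in Tom+ mesothelial cells, and 18 of 41 higher and 1 lower in Tom-. The share of all genes called was 33.7% higher and 23.6% lower in the Tom+ and 32.8% and 19.7% in the Tom- library, with medians of 0.11 and 0.14, so the share of assembly factors called higher lay near that of all genes in the Tom+ library. Mitochondrial ribosomal proteins had medians of 0.37 and 0.39, with 45 of 75 and 45 of 76 called higher, beside the same shares and medians of all genes. The tricarboxylic acid cycle enzymes had medians of 0.15 and 0.22, the glycolytic enzymes of 0.27 and 0.33, and the cytosolic ribosomal proteins of 0.18 and 0.11.

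Between Tom+ and Tom- cells of the same class the nuclear members differed little. The 13 mitochondrially encoded subunits had medians of 0.13 in stromal and 0.07 in mesothelial cells, with 11 and 10 above 0. Their summed ratios were 0.08 (0.08 to 0.09) and 0.02 (0.01 to 0.03), beside medians of 0.07 and 0.03 for all genes. Among stromal cells the median member ratio was 0.03, against 0.07 for all genes, with 46 of 76 members and 60.5% of all genes above 0, and 0 were called lower where 8.16% of all genes were. Complex IV stood somewhat higher than the other complexes in stromal cells, with a median of 0.13 and a summed ratio of 0.14 (0.13 to 0.15). The summed ratio was -0.01 (-0.01 to 0.00) for complex I, 0.04 (0.01 to 0.07) for complex II, 0.06 (0.05 to 0.08) for complex III and 0.05 (0.04 to 0.05) for complex V. All 12 complex IV members that passed lay above 0, but Cox8b passed through its Tom+ level alone. Cox6b2, at -0.52 (-0.82 to -0.23), was left out by the same filter. Under the alternatives tried the complex IV median ran from 0.06 to 0.21. After Cox8b, the highest ratios were those of the c subunit gene Atp5g3, 0.29 (0.25 to 0.33), the liver-type subunit Cox6a1, 0.27 (0.23 to 0.31), Atp5k of the membrane part of ATP synthase, 0.25 (0.20 to 0.29), and Cox5a, 0.25 (0.20 to 0.30). Toward the lower end, Ndufv1 had -0.23 (-0.30 to -0.16) and Atp5d, the delta subunit of the F1 stalk, -0.22 (-0.26 to -0.19). Over the alternatives tried Ndufv1 ran from -0.30 to 0.29 and Atp5d from -0.29 to -0.15. Of the 7 complex I core subunits, 1 lay above 0, and their summed ratio was -0.12 (-0.14 to -0.09). Without the shared barcodes the median member ratio was 0.10 and that of complex IV 0.20. Called higher in that setting were 2 members, Cox8b and Atp5g3, beside 20.7% of all genes, whose median was 0.13. Without the immunoglobulin-rich cells the median member ratio was 0.10, against 0.14 for all genes. In that setting complexes I to V took 0.432%, 0.0327%, 0.143%, 0.343% and 0.388% of Tom+ stromal UMIs. The Tom- shares in that order were 0.416%, 0.0303%, 0.131%, 0.297% and 0.359%. Complex I thus had the larger share in Tom+ cells there, so the sign of its ratio depends on those cells. In the immunoglobulin-rich cells the members took 0.664% of all UMIs and 1.54% of those not from immunoglobulin genes in the Tom+ library, against 1.34% of all UMIs in the other Tom+ stromal cells.

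In mesothelial cells the median ratio of Tom+ over Tom- was -0.03, against 0.03 for all genes, with 29 of 77 members and 56.5% of all genes above 0. The 2 groups differed in immune RNA, whose markers summed to 810 CPM in Tom+ and 177 CPM in Tom- mesothelial cells. Among them Igkc stood at 490 and 147 CPM and Lyz2 at 275 and 10.8 CPM. The part of such RNA in the member ratios was not tested. Called higher was 1 member and 0 were called lower, beside 7.33% and 4.27% of all genes. The 1 member was Atp5s, at 0.49 (-0.03 to 0.98) with 42 UMIs in Tom+ mesothelial cells and an interval that covered 0. The lowest ratios were those of Sdhd, -0.29 (-0.45 to -0.12), and Uqcrfs1, -0.25 (-0.41 to -0.10), followed by Uqcrb, which helps bind ubiquinone, -0.22 (-0.30 to -0.13), and the core subunits Ndufs3, -0.21 (-0.36 to -0.05), and Ndufs8, -0.19 (-0.38 to -0.01). Of the 7 complex I core subunits, 0 lay above 0, with a median of -0.12. Without the shared barcodes, which leaves 150 Tom+ mesothelial cells, the median of all members was -0.04 and 3 were called higher, Atp5s, Cox7a1 and Cox6b2. Of all genes, 10.2% were called higher in that setting, with a median of 0.015. With all barcodes, Cox6b2 had a ratio of 0.20 (-0.02 to 0.42) and Ndufa1 stood level at 246 and 246 CPM. Of the 75 members that passed in both classes, 24 had a ratio above 0 in both, 27 below 0 in both and 24 opposite signs. Of 9119 genes tested in both, 3834 lay above 0 in both, 2354 below 0 in both and 2931 had opposite signs. The difference between the classes was not tested.

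**Figure D5:**
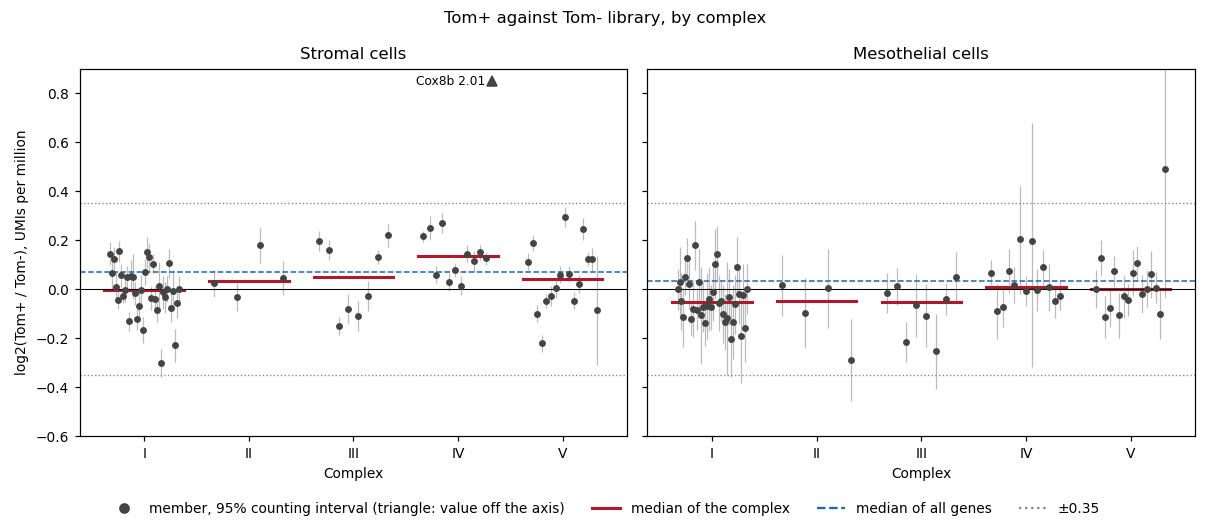
Log2 ratio of CPM in Tom+ over Tom- cells for each member that passed the level filter, by complex, in stromal and mesothelial cells, with 95% counting intervals. Complex medians lie near 0, with the complex IV median at 0.13 in stromal cells, and Cox8b stands apart at 2.01.

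Within stromal cells the chain was also compared between the marker ranges described for Cox8b. The ranges were drawn from all stromal cells and include immunoglobulin-rich ones. The Tom+ Fabp4, Cd36 and Pparg range held 19 Cox6a2 UMIs, where all Tom+ stromal cells outside the immunoglobulin-rich ones held 4. The part of the immunoglobulin-rich cells in the ratios between ranges was not tested. The cells rich in Fabp4, Cd36 and Pparg had a summed member ratio over the Dpp4 and Pi16 range of 0.13 (0.12 to 0.14) in the Tom+ and 0.08 (0.07 to 0.09) in the Tom- library, with 63 and 58 of 76 members above 0 and medians of 0.16 and 0.11. The share of all genes above 0 is not given here. The medians of all genes were 0.014 and 0.067, and the member medians stood at the 68.6 and 55.8 percentile, so the Tom- value lay close to that of all genes. In the Tom+ library 8 members were called higher and 1 lower, beside 16.7% and 14.7% of all genes. In the Tom- library 4 were called higher and 2 lower, beside 19.8% and 15.0%. The shares of members called thus lay under those of all genes. Median depths of the ranges were 15403 and 13928 UMIs in the Tom+ library and 11616 and 12375 UMIs in the Tom- library. Complex II had medians of 0.24 and 0.20 and complex IV of 0.12 and 0.07. Ndufs8, a core iron-sulfur subunit of complex I, stood at 47.6 against 33.8 CPM in the Tom+ and 45.7 against 34.1 CPM in the Tom- library. Cox5a had ratios of 0.58 (0.47 to 0.69) and 0.27 (0.16 to 0.37), and Cox8a of 0.37 (0.31 to 0.42) and 0.32 (0.27 to 0.37). Cox7a2l was the opposite, at -0.36 (-0.43 to -0.29) and -0.51 (-0.58 to -0.44), the lowest ratio of the members that passed in the Tom+ library and the lowest after Cox6b2 in the Tom- library. The 13 tricarboxylic acid cycle genes had ratios above 0 in both libraries, with medians of 0.21 and 0.24, while the cytosolic ribosomal proteins had medians of -0.32 and -0.42.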

How the data were processed

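The authors deposited a matrix of raw UMI counts per gene and barcode for each library, made by 3′ droplet sequencing and, per the submitters' processing notes, Cell Ranger 3.0.2 on mm10, with 61119807 UMIs in the Tom+ and 96872394 in the Tom- library. The files held 5566 and 11838 barcodes, of which 3524 and 6717 passed the limits on genes and mitochondrial share. No doublet caller was run. The counts were summed by library and class and divided by the group total. Levels carry exact Poisson intervals, shares of cells or UMIs exact Clopper-Pearson intervals, and ratios exact conditional intervals, all at 95%. Sums and intervals were computed with scipy 1.17.1, pandas 2.3.3 and numpy 2.4.6 in Python 3.11.15 and plotted with matplotlib 3.10.9, and the code was checked on simulated counts. Members, lists and marker ranges were chosen with earlier results of these data known. Named were the isoform sets, the core subunits and, in each comparison, the 5 highest and 5 lowest ratios among members passing 5 CPM. The alternatives tried numbered 12, with 2 chosen after the immunoglobulin-rich cells were seen. Sums, counts and medians include 1 complex I member that is not reported here by itself. Promoters came from RefSeq on GRCm38.p6. The files hold no gene lengths, and proteins and the genome were not used here.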

Additional observations from a re-analysis of the deposited data

Results flagged for a closer look

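Ndufa11, an accessory subunit of the membrane arm of complex I, had ratios of opposite sign in the libraries for mesothelial over stromal cells. The log2 ratio was -0.12 in the Tom+ library, with a counting interval of -0.23 to -0.0045. In the Tom- library it was 0.06, with an interval of 0.0014 to 0.11. Both intervals narrowly excluded 0, on opposite sides. Over the alternatives tried the Tom- ratio ran from -0.081 to 0.079, so its sign depends on the processing. The Tom+ ratio ran from -0.35 to -0.089. Among all genes the ratios stood at the 35.2 percentile in the Tom+ and the 43.4 percentile in the Tom- library. The levels behind it were 128 against 139 CPM in Tom+ and 132 against 127 CPM in Tom- cells. With 1 library on each side the difference was not tested.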

How the results depend on the processing

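The higher median of the members in mesothelial cells kept its direction under all 12 alternatives, from 0.18 to 0.39 in the Tom+ and from 0.23 to 0.39 in the Tom- library, and from 0.098 to 0.34 and from 0.22 to 0.26 above the median of all genes. With size factors the median was 0.18 in the Tom+ and 0.23 in the Tom- library, with 18 and 14 members called higher, beside 27.9% and 25.2% of all genes. In the Tom+ library 22 were called higher without the immunoglobulin-rich cells and 20 with a total that omits immunoglobulin genes. The shares of all genes were 29.6% and 28.8%. In these settings the members called higher were a share near or under that of all genes. Called lower in mesothelial cells were 3 Tom+ and 2 Tom- members with no filter on low values and 2 Tom+ members in cells of 8000 to 16000 UMIs. The shares of all genes called lower were 24.8%, 25.9% and 30.3% in that order. The stromal ratio of Tom+ over Tom- had a median of -0.045 with size factors and 0.10 without the shared barcodes or without the immunoglobulin-rich cells, and stayed 0.033 to 0.055 under the median of all genes, so the sign of the median depends on the scaling. One alternative kept only stromal cells with Pdgfra and under 2 UMIs of immune, endothelial, mural and neural markers, here called strict stromal cells. It left 35 Tom+ and 896 Tom- stromal cells. Members called higher in Tom+ stromal cells were 3 with no filter. They were 2 with equal weight of cells, at 8000 to 16000 UMIs and with the strict stromal cells. They were also 2 without shared barcodes, without immunoglobulin-rich cells and with the total that omits immunoglobulin genes. Of all genes, 24.1% were called higher with no filter and from 18.8% to 32.5% in the other settings just named. Members called lower in Tom+ stromal cells were 1 with size factors, 1 with no filter and 12 with the strict stromal cells. The shares of all genes called lower were 11.1%, 17.5% and 26.0% in that order. In mesothelial cells 4, 2, 2 and 3 members were called higher in Tom+ cells with no filter, equal weight, 8000 to 16000 UMIs and no shared barcodes, and 1 lower at 8000 to 16000 UMIs. Of all genes, 20.3%, 8.20%, 16.6% and 10.2% were called higher in that order, and 12.7% lower at 8000 to 16000 UMIs. Atp5s, with few UMIs, reversed from 0.37 to -1.05 for mesothelial over stromal in the Tom+ library with the strict stromal cells. The causes were not tested. No paired analysis was possible because each group is 1 library. Depth limits the Tom+ mesothelial group most, where 3 UMIs equal 0.564 CPM.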
